A study of Mus musculus with 22 samples.

Results

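Prdm16 and 6 genes whose products work with it were followed in brown adipose tissue (BAT) of mice with and without the RNA-binding protein CPEB2. The 7 genes, Prdm16, Mecom, Ehmt1, Zfp516, Ctbp1, Ctbp2 and Med1, were taken by name from the 55487 gene identifiers of the count tables. All 7 passed the filter on low counts in both cohorts, which left 17869 genes tested among untreated libraries and 18899 among AAV libraries.

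RNA was sequenced from BAT of C57BL/6 mice labelled as global knockouts of CPEB2 (CPEB2-KO) and of CPEB2-WT mice, with 1 library for each of 22 mice. Untreated mice, 5 of each genotype, were aged 21 to 25 weeks. The AAV cohort crossed genotype with virus (AAV-GFP or AAV-PRDM16) in groups of 3 mice that were injected into the interscapular fat at week 16 and sampled 9 weeks later. The question for these genes is whether their mRNA moved when CPEB2 was absent or when PRDM16 was supplied. Every mouse is male by its label and was kept on chow with 9% fat. The paper states that food was withheld from the untreated mice for some hours before BAT was collected. It states no such fast for the AAV cohort. The virus was an adeno-associated virus (AAV) carrying either GFP or the coding sequence of PRDM16 with a triple flag tag, in a volume of 30 µl. Many KO mice of this line die soon after birth, so the KO animals are survivors. The knockout is global by design and so is not limited to any cell type of BAT. AAV-GFP, not an untreated mouse, is the control for the PRDM16 virus.

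PRDM16 is a zinc finger protein that keeps brown adipocytes in their fate. It switches on thermogenic genes with PPARγ, C/EBPβ and PGC-1α, and it holds down white fat, muscle and interferon genes. Its partners carry out separate tasks. CtBP1 and CtBP2 are corepressors that PRDM16 brings to white fat genes, EHMT1 (GLP) methylates histone H3 on lysine 9, MED1 links the complex to RNA polymerase II through Mediator, ZFP516 is a cold-induced factor that binds the Ucp1 promoter together with PRDM16, and MECOM (EVI1, PRDM3) is the closest relative of PRDM16. CPEB2 binds U-rich cytoplasmic polyadenylation elements (CPEs) in the 3′ UTR and can raise translation without a change in mRNA level.

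The places where CPEB2 could meet the Prdm16 mRNA are shown first, because the KO comparisons below concern the loss of that protein. The longest annotated 3′ UTR of Prdm16 (GENCODE M21, GRCm38) is 4785 bases long and holds the letters TTTTAT 4 times and the variant TTTTAAT 0 times on its sense strand. The 4 sites are given with the bases around them, in the sense of the mRNA with T for U and with the element in capitals. They lie on the minus strand at chr4:154320381-154320410, chr4:154319356-154319385, chr4:154319085-154319114 and chr4:154318897-154318926.
Prdm16 site 1: ctcatcaatgatTTTTATaatgagaatcac
Prdm16 site 2: tttctttccttaTTTTATttcttccttaac
Prdm16 site 3: gtgttctatttaTTTTATtgtttggaagga
Prdm16 site 4: caagcacagatcTTTTATatttgctaaggc

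The sites start at bases 512, 1537, 1808 and 1996 of the UTR, and the last is 2790 bases from its annotated end. Such letters are common. Of 1102 other genes with a 3′ UTR of 0.8 to 1.2 times this length, 96.5% held at least 1 of the 2 motifs, with a median of 6, and 72.3% held at least 4. Mecom had 5 in 1420 bases, where the median of 2828 genes of like length was 1 and 9.19% held at least 5. Zfp516 had 5, Ctbp1 4, Med1 2, Ehmt1 1 and Ctbp2 0. A match is a stretch of letters and not a measured binding site. The paper marks fewer UUUUAU elements in the Prdm16 3′ UTR, beside other U-rich sequences. It also reports that a CPEB2 antibody brought down Prdm16 mRNA from BAT lysate. In transfected cells it reports that full-length CPEB2, but not its RNA-binding domain alone, raised translation of reporters with Prdm16 3′ UTR sequence. For KO BAT it reports less PRDM16 protein and a shift of Prdm16 mRNA to lighter polysome fractions.

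PRDM16 and MECOM also share the short peptides through which they hold CtBP. The codons of these peptides are shown, with the motif in capitals, because they link 4 of the 7 genes. They were read from GENCODE M21 transcripts of GRCm38, on the minus strand and are numbered along the mRNA, at chr4:154340990-154341016 and chr4:154340900-154340926 for Prdm16 and at chr3:29979849-29979875 and chr3:29979756-29979782 for Mecom, where the same 2 peptides are encoded.
Prdm16 first motif: gagtgcCCCTTCGACCTCACCaccaaa
Mecom first motif: gagtccCCTTTTGACCTCACCactaag
Prdm16 second motif: gaacagCCACTGGACCTGAGCatcggc
Mecom second motif: gaccagCCCCTGGATCTAAGTatgggc

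The longest exact run shared by any annotated transcripts of Prdm16 and Mecom was 36 bases, and it was 23 bases for Ctbp1 and Ctbp2. Exons of Ctbp2 overlapped Fgfr2 over 314 bases, Prdm16 overlapped B230104I21Rik on the other strand over 109, Mecom overlapped its antisense gene Mecomos over 81, and Ehmt1 overlapped Gm37139 over 21. Fgfr2 and Gm37139 lie on the same strand as the gene they overlap, where strand cannot separate the reads. How strand was treated in the counting is not given in the sources used here. Reads from these stretches therefore cannot be assigned for certain.

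Libraries summed to between 55320927 and 162721202 counts, and each of the 7 genes had at least 138 counts in every library. The paper states that Prdm3 mRNA was not found in its transcriptomes. Mecom, the gene for PRDM3, had 138 to 1973 counts in the untreated libraries and 652 to 1633 in the AAV libraries. A threshold for detection is not given in the paper. The brown adipocyte markers Ucp1, Cidea, Adipoq, Fabp4 and Plin1 summed to 6921 CPM (counts scaled to library size by the TMM method) or more in all 22 libraries. In the untreated cohort several libraries stood apart. The muscle markers Acta1, Myh4, Myh1, Ckm, Tnnt3 and Mylpf summed to 2363 CPM in WT replicate 3, 4164 in KO replicate 1 and 4967 in KO replicate 2, against 4.98 to 769 in the other 7. Y-linked transcripts were at 1.17 CPM or below, with Xist at 104 CPM or above, in WT replicates 3 and 5 and KO replicates 1, 3, 4 and 5, although all are labelled male. WT replicate 4 held both, at 116 and 14.02 CPM. Cpeb2, the deleted gene, was at 11.7 CPM in KO replicate 1, within the WT range of 7.69 to 14.3, and at 2.10 to 5.78 in the other 4. The untreated KO group is therefore described as the libraries labelled KO. In the AAV cohort Cpeb2 was at 4.33 to 5.55 CPM in KO and 10.5 to 13.96 in WT, all libraries held Y-linked transcripts, and the leukocyte markers were highest in KO + AAV-GFP replicate 3, at 102 CPM against 10.4 to 42.6 elsewhere.

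Levels of different genes were compared as CPM per kilobase of annotated exon. Ctbp1 had the highest level in every group, and its lowest library lay above the highest library of every other member. In WT + AAV-GFP it was at 17.3 ± 0.571 (SD, n = 3), followed by Med1 at 4.92 ± 0.579, Ehmt1 at 3.85 ± 0.285, Prdm16 at 3.57 ± 0.903, Ctbp2 at 2.37 ± 0.0872, Zfp516 at 1.33 ± 0.0479 and Mecom at 0.937 ± 0.136. In that group only Ehmt1 and Prdm16 overlapped among neighbours in the order. The order was the same in KO + AAV-GFP, again with only Ehmt1 and Prdm16 overlapping.

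In untreated BAT the 7 genes were less clearly ordered, because neighbours from Med1 down to Mecom overlapped in WT. Prdm16 was at 3.11 ± 1.006 CPM per kilobase in WT (n = 5) and 1.96 ± 0.548 in the libraries labelled KO, where its mean fell below that of Ehmt1, at 2.59 ± 0.714, with overlapping libraries. In the groups given the PRDM16 virus Prdm16 came second, at 10.3 ± 4.62 in WT and 9.68 ± 3.50 in KO. That value is not a level per length of 1 transcript: the virus carries only the coding part, which is 3828 of the 9321 exon bases, or 41.1%, and counts per gene cannot tell viral from endogenous mRNA.

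**Figure D1:**
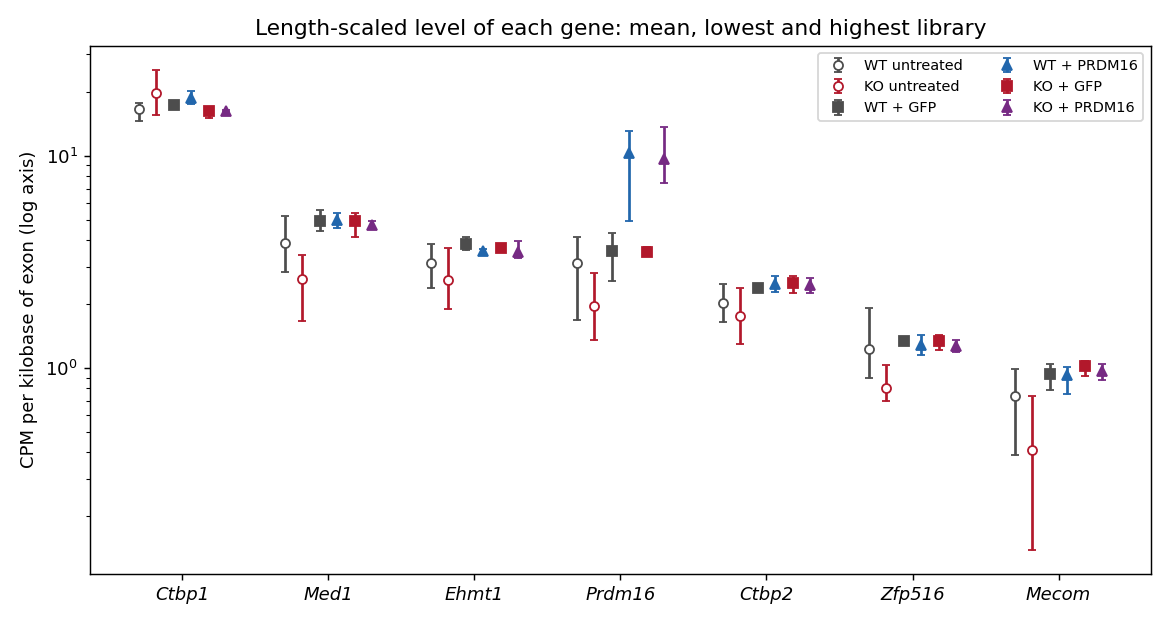
Level of the 7 genes in CPM per kilobase of annotated exon (log axis), in each of the 6 groups; markers are group means and bars run from the lowest to the highest library (n = 5 untreated, n = 3 AAV). Ctbp1 stands above the other genes in every group, and Prdm16, whose bar overlaps that of Ehmt1 in the other groups, lies above Ehmt1 in the 2 groups given the PRDM16 virus.

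Prdm16 counts were at higher values with the PRDM16 virus in both genotypes. These counts include the transcript that the virus delivers. The tests of Prdm16 between viruses below therefore measure viral and endogenous mRNA together, and not a response of the gene. Prdm16 was at 23.9, 40.2 and 35.8 CPM in WT + AAV-GFP replicates 1 to 3, and at 122, 119 and 45.9 CPM in WT + AAV-PRDM16. In KO + AAV-GFP it was at 31.7, 34.5 and 31.7 CPM, and in KO + AAV-PRDM16 at 69.2, 128 and 73.6 CPM. Every library given the PRDM16 virus lay above every library given GFP, and WT + AAV-PRDM16 replicate 3 came closest to the controls.

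Relative to the GFP mean of its genotype, Prdm16 was 3.66, 3.57 and 1.38 times as high in WT + AAV-PRDM16 replicates 1 to 3 and 2.12, 3.91 and 2.26 times as high in KO. WT replicate 3 was the lowest of the 6 and KO replicate 2 the highest. The mean difference was 62.2 CPM in WT and 57.6 CPM in KO, for which the exact two-sided permutation test gave p = 0.1 in each, the smallest value that 3 mice against 3 allow. With labels exchanged within genotype, over both genotypes, the difference was 59.9 CPM with an exact permutation p = 0.005, again the smallest possible.

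In the test over all genes (edgeR quasi-likelihood, adjusted by Benjamini-Hochberg over the genes tested), Prdm16 was 1.52 ± 0.341 (SE) higher on the log2 scale in WT (adjusted p = 0.459), 1.47 ± 0.341 in KO (adjusted p = 0.307) and 1.49 ± 0.241 over both genotypes (adjusted p = 0.0527), a 2.81-fold difference with a 95% interval of 1.96 to 4.05. No member passed an FDR of 0.05 in any of these, where 0%, 0% and 0.037% of the genes tested did. DESeq2 called Prdm16 in all 3, with adjusted p = 0.00164, 0.0019 and 5.08e-08, and 152, 266 and 602 genes in all. Over the other settings tried, the adjusted p over both genotypes ran up to 0.141, with WT + AAV-GFP replicate 3 left out.

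At a looser threshold, at least 2-fold at an FDR of 0.5 or less, Prdm16 was the only member called in WT (1.46% of genes) and in KO (2.15%). That call was lost in WT without WT + AAV-GFP replicate 3 or WT + AAV-PRDM16 replicate 1 or 2, and in KO without KO + AAV-GFP replicate 3 or any 1 of the KO + AAV-PRDM16 libraries. It was also the only member whose libraries did not overlap between viruses, in WT (14.2% of genes), in KO (9.43%) and over both genotypes together (0.561%). The difference in Prdm16 counts between viruses, with viral and endogenous mRNA together, was not detectably unlike in the genotypes. The interaction was -0.05 ± 0.473 on the log2 scale (adjusted p = 0.9998, 95% interval -1.08 to 0.97), and 0% of genes passed an FDR of 0.05 for it.

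The cofactors differed little under the PRDM16 virus. Over both genotypes the 6 log2 differences ran from -0.08 for Ehmt1 to 0.06 for Ctbp1, the smallest adjusted p was 0.857, and the widest 95% interval, that of Mecom, reached from -0.28 to 0.18. The median of all genes was -0.01. Mecom was at 12.9, 9.73 and 12.3 CPM in WT + AAV-GFP and at 12.6, 12.6 and 9.35 in WT + AAV-PRDM16. Med1 was at 42.0, 48.6 and 38.6 CPM in WT + AAV-GFP and at 47.0, 40.0 and 43.4 in WT + AAV-PRDM16. Viral and control libraries overlapped for each of these.

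The corepressors gave the same picture. Ctbp1 was at 75.1, 76.6 and 80.1 CPM in WT + AAV-GFP and at 90.1, 78.1 and 82.95 in WT + AAV-PRDM16, a log2 difference of 0.12 ± 0.0862 (adjusted p = 0.84). Ctbp2 was at 14.2, 14.8 and 15.3 CPM against 14.1, 15.2 and 17.0, with a log2 difference of 0.06 ± 0.11 (adjusted p = 0.957). In KO mice the differences of all 6 cofactors lay between -0.08 (Mecom) and -0.003 (Ctbp1), each with an adjusted p of 0.9999. Across the 12 AAV libraries the SD of log2 CPM was 0.0969 for Ehmt1, 0.103 for Zfp516, 0.103 for Ctbp2, 0.107 for Ctbp1, 0.129 for Med1 and 0.171 for Mecom, against 0.858 for Prdm16 and a median of 0.332 over all genes tested. A low count adds noise to an SD, so this comparison over all genes also reflects expression level.

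**Figure D2:**
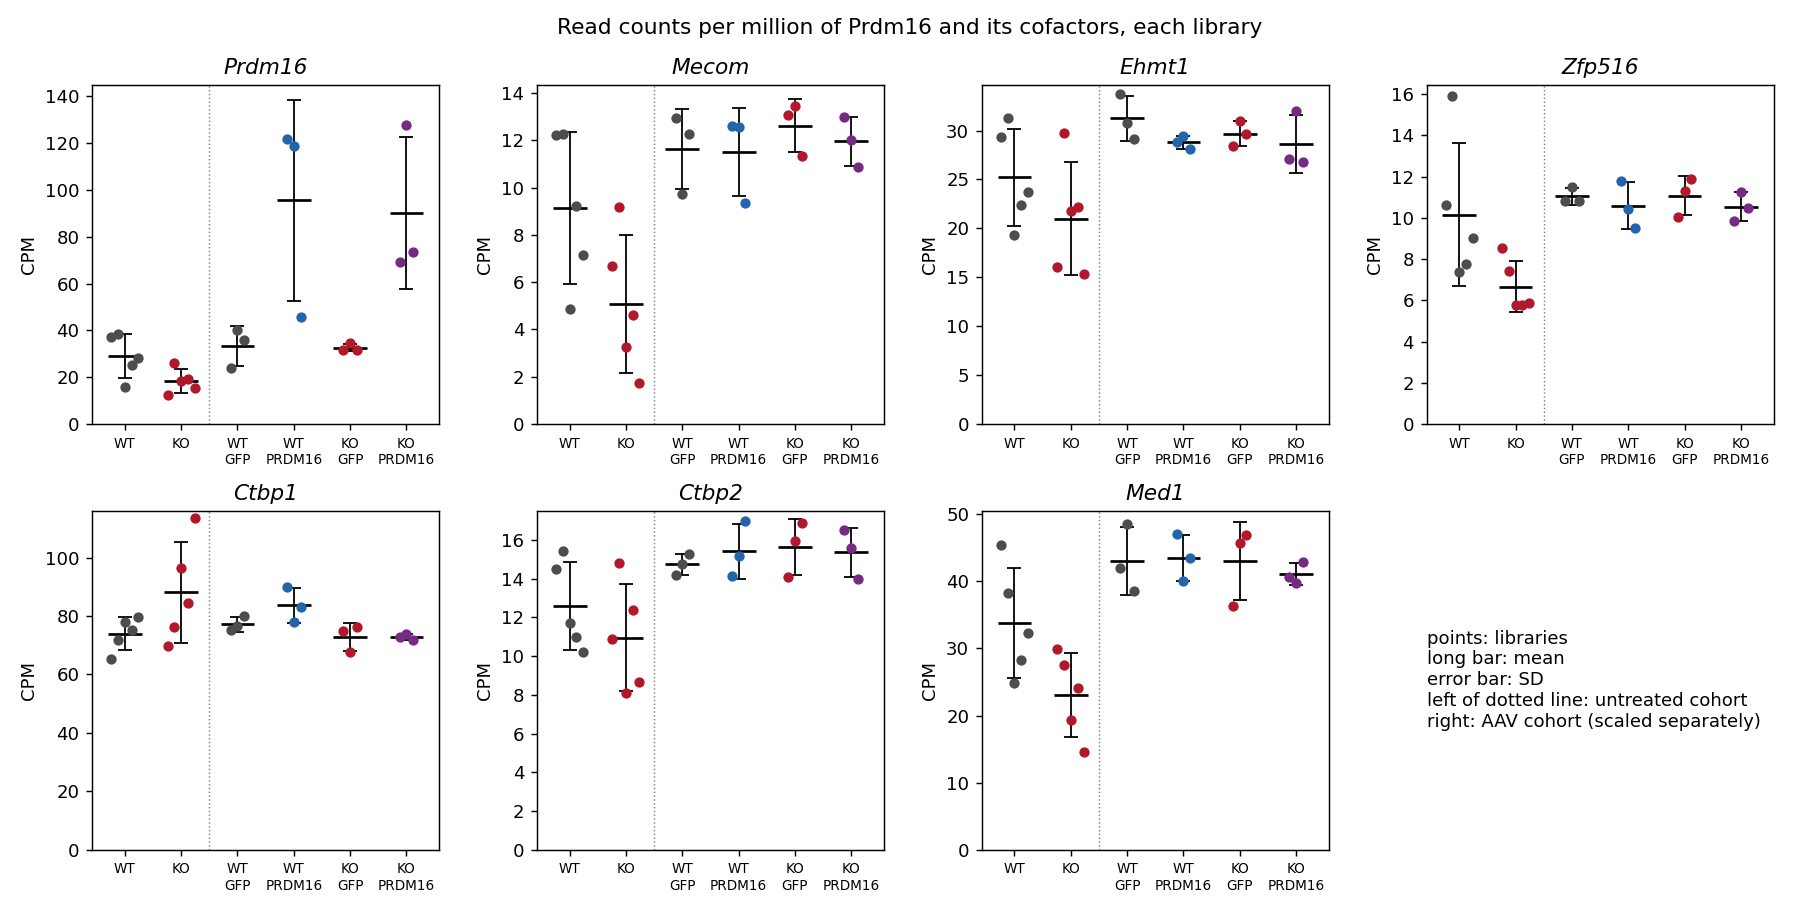
CPM of each gene in every library (points), with group mean (long bar) and SD (error bar), for the 5 WT and 5 KO untreated libraries to the left of the dotted line and for 3 libraries of each AAV group to the right; the cohorts were scaled separately. Prdm16 lies above the AAV-GFP libraries in all 6 libraries given the PRDM16 virus, to between 45.9 and 128 CPM, while the highest AAV library of any other gene is at most 1.44 times its lowest.

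Loss of CPEB2 left the mRNA of all 7 genes within error of WT under AAV-GFP. Prdm16 differed by -0.03 ± 0.335 on the log2 scale (adjusted p = 0.993), with a 95% interval of 0.592 to 1.62 in fold change, so that a difference of moderate size could not be seen. The 6 cofactors were measured more tightly, with log2 differences from -0.08 (Ctbp1) to 0.12 (Mecom) and adjusted p values of 0.862 or above. No member passed an FDR of 0.05, where 0.0529% of genes did, and none had libraries that did not overlap, where 13.4% of genes did.

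Ctbp1 was lower in KO than in WT when PRDM16 was supplied, without passing the adjusted test. It was at 90.1, 78.1 and 82.95 CPM in WT + AAV-PRDM16 and at 72.7, 73.8 and 71.6 in KO + AAV-PRDM16. All 3 KO libraries lay below all 3 WT libraries, a separation that 22.8% of all genes also showed. The log2 difference was -0.20 ± 0.0863 (unadjusted p = 0.0362, adjusted p = 0.325), and over both viruses it was -0.14 ± 0.061 (adjusted p = 0.232). The other members differed by -0.08 to 0.06 on the log2 scale with adjusted p of 0.825 or above. No member passed an FDR of 0.05 here, where 0.0476% of genes did, nor over both viruses, where 2.18% did. For Ctbp1 the KO difference under AAV-GFP was -0.08 ± 0.0862 (adjusted p = 0.862). Its interaction of genotype and virus was -0.12 ± 0.122 (adjusted p = 0.9998), and its untreated difference had the other sign, at 0.25 ± 0.203.

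For KO mice given PRDM16 against WT mice given GFP, Prdm16 was 1.44 ± 0.341 higher on the log2 scale (adjusted p = 0.39). It was the only member at the looser threshold, which 0.9% of genes reached, a call lost without WT + AAV-GFP replicate 2 or 3 or KO + AAV-PRDM16 replicate 1 or 3, and no member passed an FDR of 0.05 (0.00529% of genes). The libraries of 2 members did not overlap, where 13.2% of genes did not: Prdm16 was higher in KO + AAV-PRDM16, and Ctbp1 was lower, by -0.09 ± 0.0862 (adjusted p = 0.889). The WT + AAV-GFP libraries enter this comparison as well as the earlier ones with AAV-GFP in WT. The 5 remaining cofactors were between -0.13 (Ehmt1) and 0.06 (Ctbp2).

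**Figure D3:**
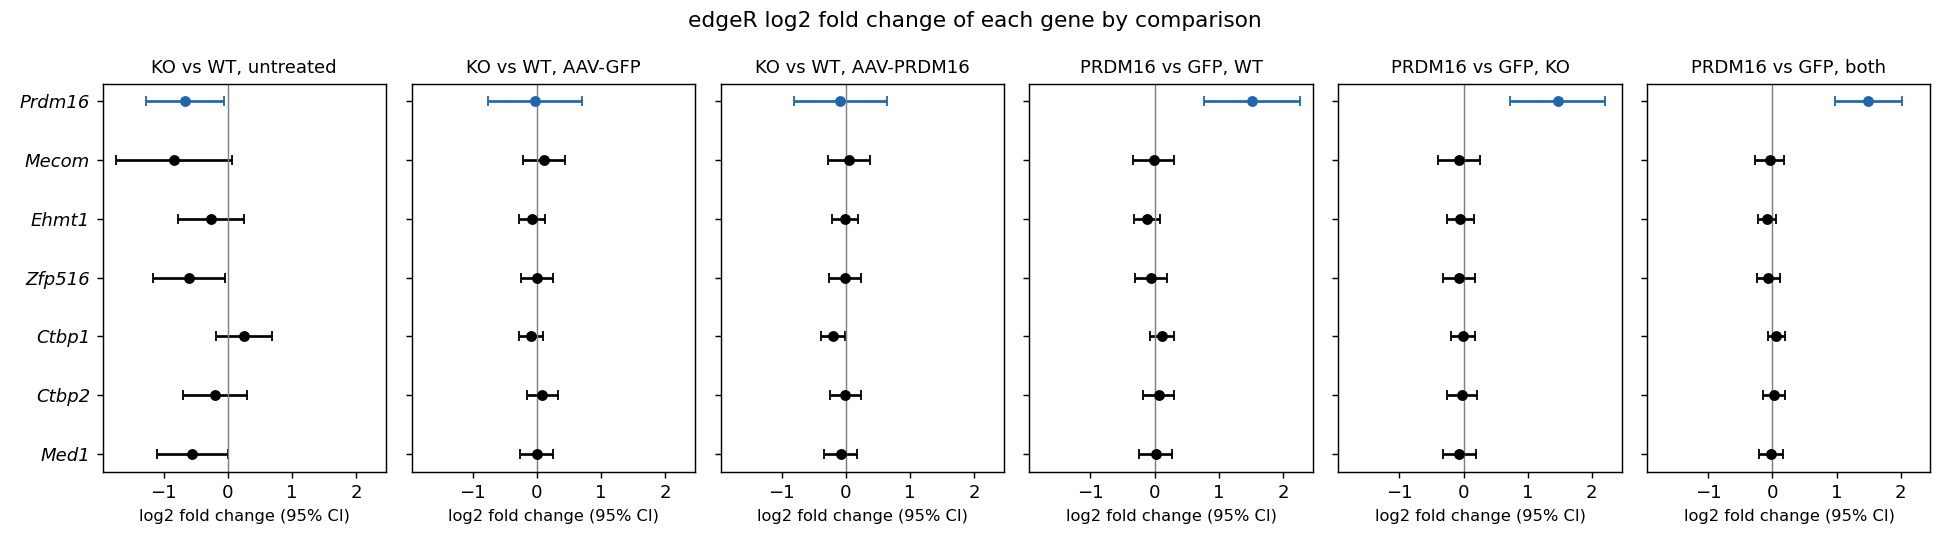
Log2 fold change (point) with its 95% interval (bar) from the edgeR fit, for the 7 genes in 6 comparisons; the horizontal axes are the same in all panels. Prdm16 under the PRDM16 virus stands at 1.47 to 1.52. The cofactors cluster at 0 in the AAV cohort, and their intervals are wider in the untreated comparison.

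In untreated BAT the values were more scattered, and 6 of the 7 genes had a lower mean in the libraries labelled KO. Of all genes tested, 48.2% had a log2 difference below 0. Prdm16 was at 37.2, 38.6, 15.7, 25.2 and 28.1 CPM in WT replicates 1 to 5 and at 12.6, 26.1, 18.3, 19.1 and 15.2 in KO. The groups overlapped, with WT replicate 3 below 3 of the KO libraries. The log2 difference was -0.67 ± 0.283 (unadjusted p = 0.0357, adjusted p = 0.306). From RT-qPCR on BAT of mice of both sexes and several ages, the paper proposes that CPEB2 loss affects PRDM16 protein but not its mRNA.

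Among the activating partners, Med1 was at 45.5, 38.3, 24.8, 28.3 and 32.4 CPM in WT and at 29.9, 27.5, 19.4, 24.1 and 14.5 in KO, a log2 difference of -0.55 ± 0.254 (unadjusted p = 0.0495, adjusted p = 0.315). Zfp516 was at 10.6, 15.9, 7.38, 7.76 and 9.05 CPM in WT and at 8.53, 7.41, 5.76, 5.76 and 5.89 in KO, a log2 difference of -0.60 ± 0.26 (unadjusted p = 0.0377, adjusted p = 0.308). For both genes, WT replicates 1 and 2 held the highest levels. WT replicate 5 also lay above every library labelled KO, and WT replicates 3 and 4 lay among them.

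Mecom gave the largest difference and the widest scatter. It was at 12.2, 12.3, 4.84, 9.21 and 7.14 CPM in WT and at 6.68, 9.16, 3.26, 4.61 and 1.73 in KO, with a log2 difference of -0.84 ± 0.418 (unadjusted p = 0.0656, adjusted p = 0.329). KO replicate 5 was the lowest library of the cohort for Mecom as well as for Med1 and Ehmt1.

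The repressive partners differed least. Ehmt1 was at -0.26 ± 0.239 on the log2 scale (adjusted p = 0.542), between 15.4 and 29.7 CPM in KO and between 19.4 and 31.2 in WT. Ctbp2 was at -0.20 ± 0.231 (adjusted p = 0.639). Ctbp1 alone had a higher mean in KO, at 69.8, 76.1, 96.4, 84.4 and 114 CPM against 65.2, 71.8, 78.0, 75.3 and 79.6 in WT, a log2 difference of 0.25 ± 0.203 (adjusted p = 0.495). KO replicates 3, 4 and 5 lay above all WT libraries for Ctbp1, and KO replicates 1 and 2 did not.

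No member passed an FDR of 0.05 in untreated BAT, where 0% of genes did, and by DESeq2 0 genes passed as well. At an unadjusted p under 0.05 there were 3 members (Prdm16, Zfp516 and Med1), beside 15.9% of all genes. Of all genes at that level, 1944 were lower in the libraries labelled KO and 892 were higher. None reached the looser threshold, which 10.8% of genes did, although Mecom did without WT replicate 3, without KO replicate 2 or without the 3 libraries rich in muscle transcripts, and no member had groups that did not overlap, where 1.4% of genes did. The median log2 difference of the 7 was -0.55, against 0.04 over all genes.

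These differences moved with the choice of libraries. Without WT replicates 1 and 2 Prdm16 was at -0.26, Med1 at -0.25, Zfp516 at -0.22 and Mecom at -0.42, and Ehmt1 and Ctbp2 were at 0.004 and 0.05 (smallest adjusted p = 0.867). Over the 6 libraries with no Y-linked transcripts, of which 2 are WT, Prdm16 was at -0.40 and the 7 genes kept their signs (smallest adjusted p = 0.864). Without the 3 libraries rich in muscle transcripts, an alternative chosen after seeing the data, the differences were larger, with Prdm16 at -0.84, Mecom at -1.65, Med1 at -0.87 and Ctbp1 at 0.48 (smallest adjusted p = 0.0656). The part that the uneven muscle content, the Y-linked transcripts or the Cpeb2 level of KO replicate 1 had in these values was not tested beyond that. In tissue RNA, fewer cells of a type and less mRNA in each of them cannot be told apart. The brown adipocyte markers summed to 8827 to 18880 CPM in the libraries labelled KO and 8231 to 17040 in WT, and 4 of the 5 had log2 differences above 0 (median 0.28, range -0.05 to 0.54), with 0 past an FDR of 0.05.

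**Figure D4:**
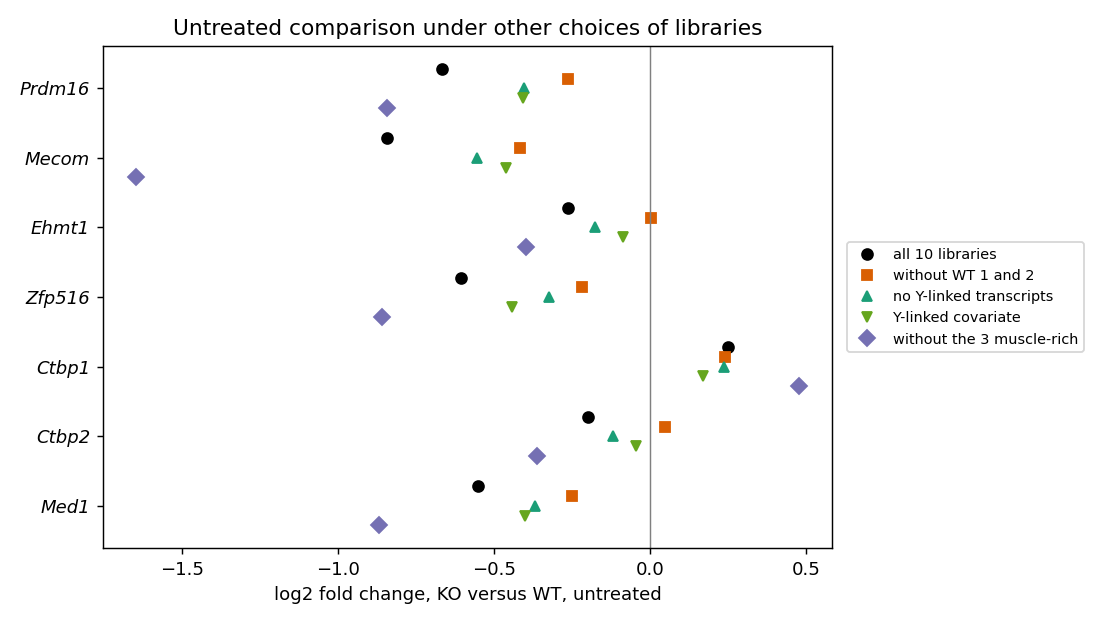
Log2 fold change of the 7 genes, KO versus WT, untreated, with all 10 libraries (circles) and under 4 other choices of libraries or covariates. The points for Prdm16 run from -0.84 to -0.26, and Ehmt1 and Ctbp2 lie at 0.004 and 0.05 without WT replicates 1 and 2.

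The library-to-library pattern of Prdm16 was compared with that of every gene tested, as the root mean square (RMS) difference of log2 CPM centred on the cohort mean. In the 10 untreated libraries Ptprm (a receptor tyrosine phosphatase) at 0.15, Cecr2 (a chromatin remodelling subunit) at 0.184 and Zfp827 (a zinc finger protein) at 0.198 were nearest, against a median of 0.776 over all genes. Of the cofactors, Ehmt1 came closest, in place 31 of 17869 with 0.255, followed by Med1 in place 509, Zfp516 in place 569 and Ctbp2 in place 890. Mecom was in place 4907 and Ctbp1 in place 6701. In the 12 AAV libraries the closest were Rpl19-ps11 at 0.446, D530018E20Rik at 0.481 and Gm9200 at 0.498, and the cofactors lay between 0.799 (Ctbp1) and 0.851 (Ehmt1), against a median of 0.882 over all genes. A gene with the same level in every library would lie at 0.523 in the untreated and 0.822 in the AAV libraries. Mecom and Ctbp1 were farther than that in the former, and in the latter only Ctbp1 of the cofactors was nearer. These are descriptions over libraries that share their scaling. In libraries given the PRDM16 virus, Prdm16 counts hold viral and endogenous mRNA together. The pattern in the AAV libraries is therefore not that of the endogenous gene alone.

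The other genes of the pathway were read as counts over lists. Of 20 corepressor and H3K9 methylation partners, 0 passed an FDR of 0.05 under the PRDM16 virus over both genotypes (median log2 difference -0.02). The most abundant were Zeb2 at -0.02, Ehmt2, the partner methyltransferase of EHMT1, at -0.03 and Zeb1 at -0.01. Of 32 other Mediator subunits 0 passed (median 0.02), with Med12 at -0.02, Med13 at -0.05 and Med13l at -0.09. Of 16 brown fat transcription partners 0 passed (median 0.05), with Cebpa at 0.02, Pparg at 0.11 and Cebpb at -0.06. Of 9 genes for PRDM16 turnover and antagonists 0 passed (median -0.01), among them Appbp2, a substrate receptor of the ligase that degrades PRDM16, at -0.01.

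Relatives of PRDM16 did not pass either. Of 13 other PRDM genes 9 were tested, and the most abundant, Prdm2, Prdm9 and Prdm4, were at -0.02, -0.02 and -0.01 under the PRDM16 virus over both genotypes. Prdm1, which acts in lymphocytes, was at 0.822 CPM over the cohort and at -1.69 ± 0.321 (adjusted p = 0.0527), and it was named after its value was seen. In 13 of 18 alternatives 0 genes of this list passed, and in the others 1 did.

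Between genotypes over both viruses, where 2.18% of genes passed an FDR of 0.05, single members of the lists were called. Rcor2, a CoREST corepressor, fell by 0.48 on the log2 scale in KO (adjusted p = 0.039), 1 of 20 partners, and passed in 7 of 18 alternatives (adjusted p up to 0.11). Elob, the elongin B adaptor of the CUL2 ubiquitin ligase, fell by 0.45 (adjusted p = 0.0145), 1 of 9, and passed in 17 of 18, the exception being without KO + AAV-PRDM16 replicate 1 (adjusted p = 0.0566). None of the 32 Mediator subunits or 16 transcription partners passed (smallest adjusted p = 0.053 and 0.0522), where 1 and 4 of them passed with DESeq2, 1 and 3 with limma-voom, and 0 in 14 of 18 alternatives for each list. Of the transcription partners 12 of 16 were below 0 (median -0.09), where 48.4% of all genes were, with Cebpb at -0.64 ± 0.194 (adjusted p = 0.101) and Cebpa at -0.27 ± 0.0772 (adjusted p = 0.0848).

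Of the genes that PRDM16 is known to raise in brown fat, some were lower in KO in the AAV cohort. Of 12, 4 passed an FDR of 0.05, where 2.18% of all genes did, all lower over both viruses: Cox7a1 fell by 0.63 (adjusted p = 0.0145), Cox8b by 0.66 (adjusted p = 0.0189), Cidea by 0.39 (adjusted p = 0.0378) and Acot2 by 0.79 (adjusted p = 0.0492). Cox7a1 and Cox8b are subunits of cytochrome c oxidase found in heat-producing and muscle tissue, Cidea is a lipid droplet protein and Acot2 a mitochondrial thioesterase. The 4 calls were not equally firm. Of 18 alternatives, which include leaving out each library, Cox7a1 passed in 18 (adjusted p of 0.0493 or below), Cox8b in 15, Cidea in 8 and Acot2 in 5, so the count of this list ran from 1 to 6. Cell type markers differed in the same comparison: all 5 brown adipocyte markers, which include Cidea, were below 0 (median -0.23, 1 called), and the medians were 0.82 for leukocyte and 0.41 for endothelial markers. Their part in the values of the 12 genes was not tested. Ucp1 was at -0.24 ± 0.217 (adjusted p = 0.613) and Pdk4 at -0.41 ± 0.12 (adjusted p = 0.0951). The PRDM16 virus raised none of the 12 past an FDR of 0.05 (median 0.10), with Ucp1 at 0.31 ± 0.217 (adjusted p = 0.811), Cidea at 0.11 and Pdk4 at 0.02. Between genotypes within each virus, 0 of the 12 passed and 9 were below 0. The median log2 difference, KO against WT, was -0.26 under AAV-GFP and -0.51 under AAV-PRDM16.

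Of 8 white fat genes that PRDM16 is known to lower, 7 were tested. Psat1, a serine synthesis enzyme, rose by 0.82 in KO over both viruses (adjusted p = 0.0378) and Ednra, an endothelin receptor, rose by 0.77 (adjusted p = 0.0376), but each passed in only 6 of 18 alternatives (adjusted p up to 0.105 and 0.0885). Nnmt was at 0.55 (adjusted p = 0.576) and Retn at -0.23 (adjusted p = 0.67). None passed under the PRDM16 virus (median -0.03).

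Interferon genes, which PRDM16 is known to hold down, had the same direction throughout under the virus. All 15 had negative log2 differences under the PRDM16 virus in WT (median -0.46) and in KO (median -0.75), where 52.1% and 51.5% of all genes did, and 0 passed an FDR of 0.05. Over both genotypes 0 passed as well, where 0.037% of all genes did. In 14 of 18 alternatives 0 passed; 2 passed with DESeq2, which called 602 genes in all, 1 with no filter on low counts, 3 without WT + AAV-GFP replicate 1 and 1 without KO + AAV-GFP replicate 1. There Gbp2 was at -1.43 ± 0.279 (adjusted p = 0.0543) and Rsad2 at -0.11 ± 0.186 (adjusted p = 0.962). The 5 leukocyte markers went the same way. All 5 had negative differences under the PRDM16 virus in both genotypes (medians -1.04 and -1.90). Over both genotypes 0 passed, against 4 with DESeq2, 2 with RLE scaling, 2 with no filter, and 3 without WT + AAV-GFP replicate 1 or KO + AAV-GFP replicate 1. Their sum was 15.7 to 42.6 CPM in WT + AAV-GFP, 10.4 to 13.4 in WT + AAV-PRDM16, 33.1 to 102 in KO + AAV-GFP and 18.7 to 24.9 in KO + AAV-PRDM16. Their part in the interferon values was not tested. Between genotypes, all 15 interferon genes were higher in KO over both viruses (median 0.58, smallest adjusted p = 0.0789), as were all 5 leukocyte markers, of which Csf1r, a macrophage receptor, passed (1.02, adjusted p = 0.0349), as it did in 9 of 18 alternatives.

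**Figure D5:**
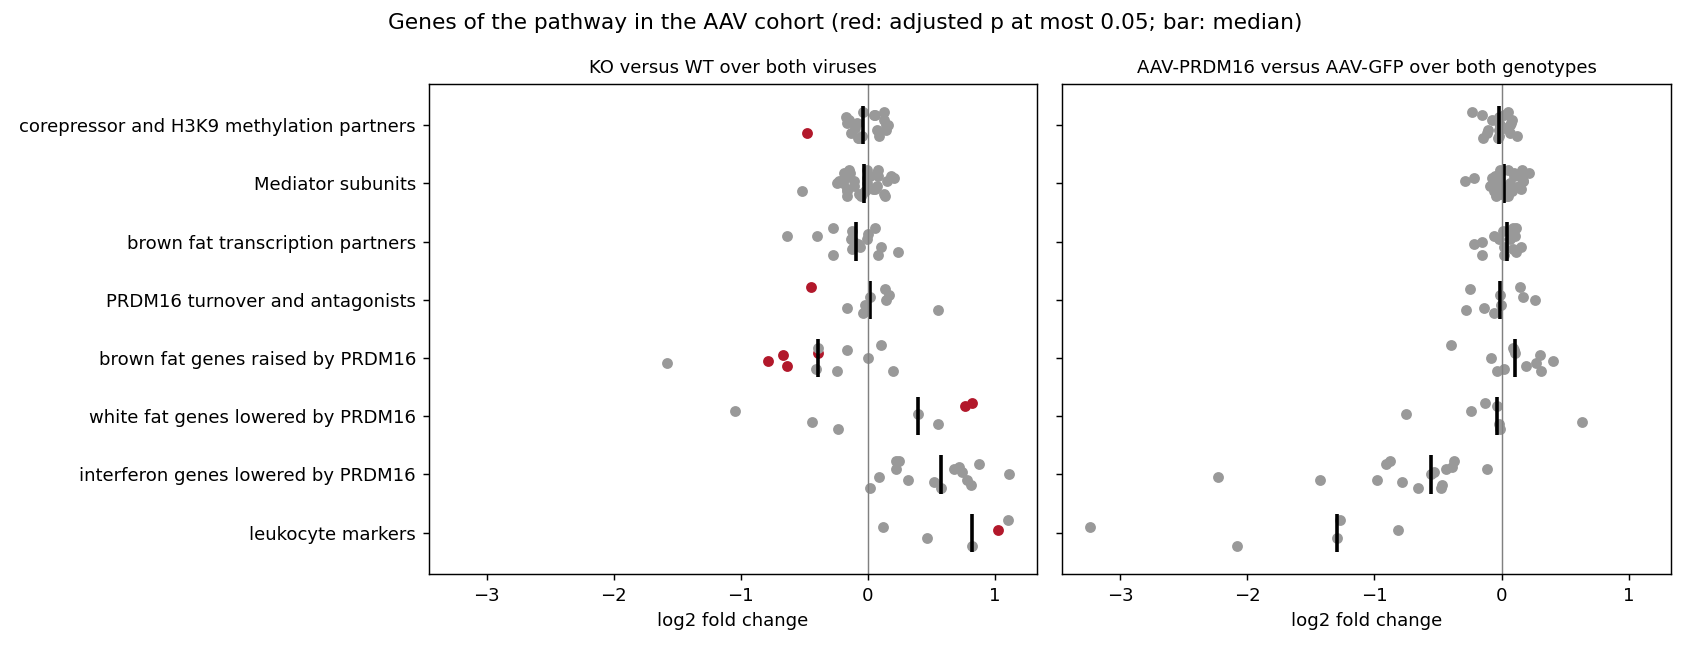
Log2 fold change of each gene of 8 lists in the AAV cohort, KO versus WT over both viruses (left) and AAV-PRDM16 versus AAV-GFP over both genotypes (right); red points have an adjusted p of 0.05 or less (edgeR) and black bars are list medians. The lists of PRDM16 partners have medians of -0.02 to 0.05 for virus, the transcription partners have a median of -0.09 for genotype, and interferon genes and leukocyte markers lie to the right for genotype and to the left for virus.

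In the untreated cohort 0 genes of any list passed an FDR of 0.05. The median log2 difference was -0.52 for the corepressor and H3K9 partners, of which 15 of 20 were negative, -0.08 for the Mediator subunits, -0.20 for the transcription partners, -0.01 for the brown fat genes, 0.47 for the white fat genes and 0.17 for the interferon genes, against 0.04 over all genes. Of all genes tested, 48.2% were negative. The markers of leukocytes (median 0.51), white adipocytes (1.03) and skeletal muscle (2.07) were at higher values in the libraries labelled KO, and 0 passed the test. In the AAV cohort over both viruses, 0 of 3 endothelial, 0 of 3 white adipocyte and 0 of 5 tested muscle markers passed between genotypes. The muscle median was 2.79, with a summed level of 67.9 CPM in KO + AAV-GFP replicate 1 and 19.2 in WT + AAV-PRDM16 replicate 2 against 0.337 to 1.28 in the other 10.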

How the data were processed

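BAT libraries of 22 mice were prepared with the SureSelect XT HS2 mRNA kit. The authors deposited a table of raw read counts per Ensembl gene for each cohort, as whole numbers without normalization. The submitters' processing notes name bcl2fastq 2.20, Trimmomatic 0.36, HISAT2 and GRCm38.p6. The counting tool, annotation, strand setting and handling of molecular identifiers and duplicate reads are not given in the sources used here. Groups came from the sample labels. Each library was taken as 1 mouse, as the labels give each a number of its own within its group.

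Symbols, positions and exon lengths came from GENCODE M21, which matched 55227 of 55487 identifiers. Genes were filtered with filterByExpr, scaled by TMM and tested by edgeR 4.0.16 (quasi-likelihood, two-sided, R 4.3.3), untreated and AAV libraries separately, with all 12 AAV libraries in 1 fit. P-values were adjusted by Benjamini-Hochberg over all genes tested, and 95% intervals use the moderated degrees of freedom. The scripts were tested on simulated data. Libraries held 55320927 to 162721202 counts, with at least 138 for each of the 7 genes.

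The 7 genes, the lists and the tests were chosen with earlier results of these data known. Named beyond the 7 genes are the 3 nearest to Prdm16, and from each list the 3 most abundant genes plus any at an FDR of 0.05. The value of 1 such gene is not reported here. Replicate numbers did not pair the samples (correlation of deviations from -0.292 to 0.154). Alternatives were DESeq2 1.42.0, limma-voom (limma 3.58.1), RLE scaling, no filter, no mitochondrial genome genes, a replicate block, only the groups compared, each library left out, and for untreated mice other sets of libraries or a Y-linked covariate. The 3 muscle-rich libraries were left out as an alternative added after seeing the data.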

Additional observations from a re-analysis of the deposited data

How the results depend on the processing

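The count of members at an FDR of 0.05 was 0 in each of the 9 comparisons and remained 0 in 130 of 139 alternatives. In the other 9 it was 1, Prdm16 under the PRDM16 virus: with DESeq2 in WT (1), in KO (1), for KO with AAV-PRDM16 against WT with AAV-GFP (1) and over both genotypes (1), and over both genotypes also with RLE scaling (1; adjusted p = 0.0499) and with no filter on low counts (1; adjusted p = 0.0301). With 1 library left out the count over both genotypes ran from 0 to 1, and it was 1 without WT + AAV-GFP replicate 1, WT + AAV-PRDM16 replicate 3 or KO + AAV-GFP replicate 1. The cause was not tested. The log2 difference of Prdm16 over both genotypes stayed between 1.31 and 1.66 in all 18 alternatives.

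With the replicate block the count of members was 0 in all 9 comparisons, and the genes called over both genotypes went from 7 to 2, under AAV-GFP between genotypes from 10 to 1, and under AAV-PRDM16 from 9 to 5. DESeq2 called 243 and 619 genes in those last 2 comparisons, 157 for KO with AAV-PRDM16 against WT with AAV-GFP, 1584 over both viruses against 412 by edgeR, and 1 for the interaction. limma-voom called 1269 over both viruses and 545 under AAV-PRDM16, and no filter left 250 over both viruses. RLE scaling called 76 and no filter 144 over both genotypes. Of the 9 list genes called between genotypes over both viruses, none changed sign in 18 alternatives, but Acot2, Ednra, Psat1, Rcor2 and Cidea lost their calls in 13, 12, 12, 11 and 10 of them, most when 1 library was left out, which also leaves fewer samples. With 3 mice against 3, an exact test cannot go below p = 0.1.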
